A study of Mus musculus with 35 samples.

Results

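The livers of 5 mice that had breathed styrene at 120 ppm were compared with the livers of 5 mice that had breathed air alone, 10 of the 35 arrays in the study. All arrays whose labels give a concentration of 120 or 0 ppm were taken, 1 array per mouse, and each of the 45037 probe sets that are not controls was tested. The 120 ppm group was made of wild-type adult male C57Bl/6 mice from Taconic, each caged singly during 1 exposure of 6 hours. The air group was made of mice of the same strain, sex and stage that spent the same time in such cages without styrene. Feed and water were free, and the mice were killed with pentobarbital and bleeding in the morning after the exposure, so the livers show 1 time point. The labels give neither an age beyond adult nor the hour of death of each mouse. The sample titles carry numbers from 49 to 56 at 120 ppm and from 1 to 8 in air, and over the study these numbers climb with the concentration. What the number stands for is not given in the sources used here, and between groups number and concentration cannot be told apart. A group at 40 ppm, with 5 mice exposed and sampled in the same way, served for a direct comparison. The difference does not use the air mice, but they enter the shared estimate of the spread.

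Styrene is a volatile monomer that liver and lung oxidise to a reactive epoxide. The liver makes most plasma proteins, and it changes the set it secretes in an acute phase response, when cytokines of the interleukin-6 family reach hepatocytes and act through the transcription factor STAT3. Hepatocyte transcripts also follow the time of day and feeding, through the transcription factors CLOCK and BMAL1 and the repressors that these switch on. Chaperones of the cytosol are switched on by the factor HSF1, and those of the endoplasmic reticulum, through which secreted proteins pass, by the unfolded protein response.

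The tissue label was borne out by its markers, and the 2 groups were far apart as whole profiles. The 8 hepatocyte markers averaged between 13.07 and 13.20 in the 120 ppm mice and between 13.10 and 13.17 in the air mice, on the deposited log2 scale, which runs from 1.74 to 14.23. On the first principal component of the 10 arrays, with 42.4% of the variance, the 120 ppm mice scored from -34.9 to -29.4 and the air mice from 16.8 to 46.7, air replicate 5 lying nearest to the other group. In limma's fit over all 35 arrays, 3283 of 17097 genes had an adjusted p under 0.05 (19.2%), with 1917 higher at 120 ppm (11.2%) and 1366 lower (7.99%). In this text a gene rose or fell if its probe set of highest mean met that threshold, with adjustment over all 45037 probe sets. At least 1.5-fold was reached by 564 rises (3.30%) and 313 falls (1.83%). The groups did not overlap, meaning that every 120 ppm mouse lay on one side of every air mouse, for 1405 higher genes (8.22%) and 1049 lower ones (6.14%).

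The arrays themselves differed as well. The array median was 3.598 ± 0.0274 at 120 ppm and 3.503 ± 0.0194 in air (SD, n = 5 each; two-sided exact permutation p = 0.00794, adjusted p = 0.0119 over 3 measures). For actin, probe sets at the 3' end exceeded those at the 5' end, a measure that RNA integrity and labelling affect, by 0.717 ± 0.0506 at 120 ppm and 0.478 ± 0.0475 in air (SD, n = 5 each; exact permutation adjusted p = 0.0119), while for GAPDH the excess was 0.120 at 120 ppm and 0.147 in air (exact permutation adjusted p = 0.421). With each array centred on its median, 973 genes were called higher and 2518 lower, and after a second quantile normalization 1252 and 1894. List counts below are to be read beside 11.2% higher and 7.99% lower over all genes. Centred list counts are to be read beside 973 and 2518 of 17097 genes. The median change over all genes was 0.04 as deposited and -0.06 with centring, so small changes are relative to that choice, and counts in the lists below that it moved by more than 1.5 times are given beside them. The 40 ppm arrays, used further below, had medians of 3.552 to 3.605 and an actin 3' excess of 0.6004 to 0.7875. In air these ran from 3.476 to 3.526 and from 0.4358 to 0.5518. At 120 ppm they ran from 3.570 to 3.628 and from 0.6455 to 0.7874. The part of these measures in the changes was not tested.

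**Figure D1:**
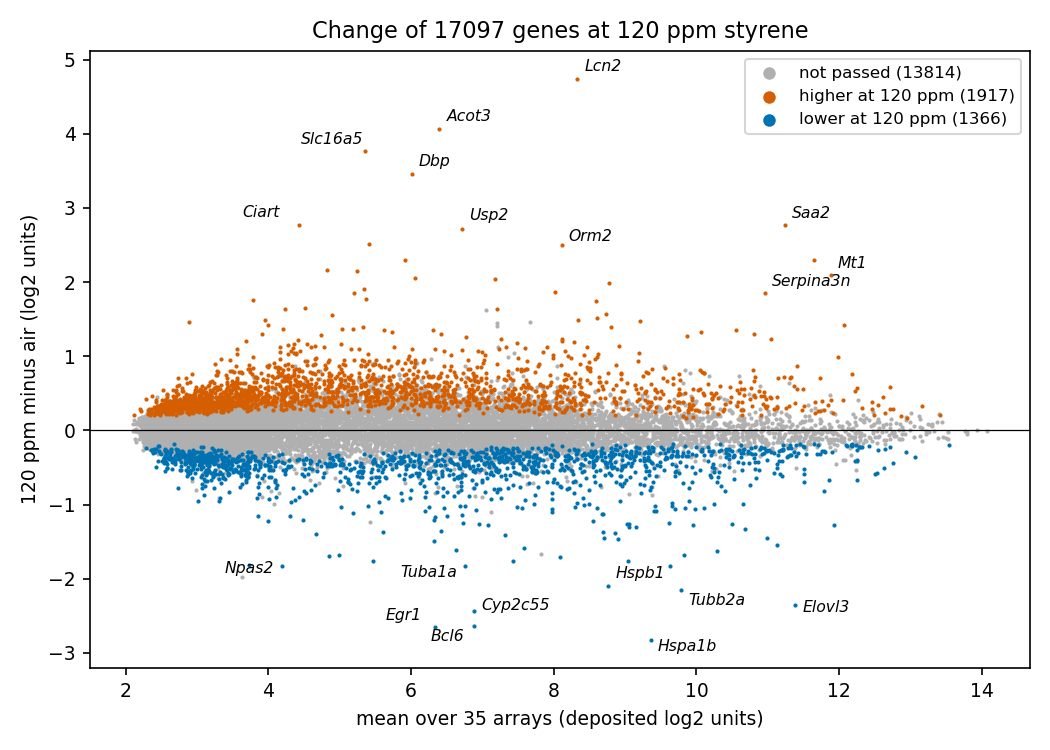
Change at 120 ppm minus air (vertical axis, log2 units) against the mean level over all 35 arrays (horizontal axis, deposited log2 units) for 17097 genes. Grey points did not pass, orange points were higher (1917) and blue points lower (1366) at an adjusted p under 0.05. The named genes are the largest changes and the genes of lists in the text, with Lcn2 at 4.74 the highest and Hspa1b at -2.82 the lowest called.

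Genes of acute phase proteins were among the largest rises at 120 ppm. Of 24 measured acute phase genes 12 rose and 0 fell, with a median change of 0.25 against 0.04 over all genes. Lcn2, which encodes a secreted binder of bacterial iron carriers, stood at 12.02, 12.16, 12.03, 11.65 and 11.82 in the 120 ppm mice, against 7.67, 5.98, 6.44, 6.93 and 8.96 in the air mice. The lowest of the exposed mice lay 2.70 above the highest air mouse, the widest such gap of all genes, although air replicate 5 was well over the other air mice. The change was 4.74 ± 0.61 on the log2 scale (SE; adjusted p = 7.12e-06). Saa2, a serum amyloid A protein carried on lipoproteins, stood at 13.30, 13.40, 13.30, 13.33 and 13.43 at 120 ppm, against 10.56, 9.84, 11.16, 9.82 and 11.51 in air, again without overlap. Serpina3n, a protease inhibitor with the smallest p of all genes, stood at 12.50, 12.57, 12.38, 12.16 and 12.19 at 120 ppm, against 10.25, 10.32, 10.23, 10.51 and 11.22 in air, a rise of 1.85 ± 0.18 on the log2 scale (SE; adjusted p = 9.02e-08). The family relatives Saa1 and Orm3 rose by 2.29 (adjusted p = 0.000656) and 2.29 (adjusted p = 0.000656). Saa1 and Saa2, and likewise Orm2 and Orm3, are near-identical genes whose probes can read each other's transcripts.

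Some acute phase genes did not pass. Fibrinogen, the clotting protein, is encoded by Fga, Fgb and Fgg, whose changes of 0.09 (adjusted p = 0.493), 0.14 (adjusted p = 0.262) and 0.06 (adjusted p = 0.585) did not pass. Hpx, the heme carrier hemopexin, changed by 0.09 (adjusted p = 0.374), with levels of 13.39, 13.42, 13.36, 13.44 and 13.39 at 120 ppm and 13.33, 13.30, 13.34, 13.28 and 13.32 in air. Stat3 itself had 9.25 at 120 ppm and 9.23 in air (adjusted p = 0.956). Lifr, the receptor for leukemia inhibitory factor and a partner of the shared subunit gp130, stood at 8.29, 8.63, 9.41, 9.79 and 10.27 at 120 ppm, against 11.06, 10.75, 11.13, 10.63 and 10.96 in air, a fall of 1.63 ± 0.29 on the log2 scale (SE; adjusted p = 0.000259). That fall rests on 1 of 3 probe sets, and the mean of all of them did not pass (adjusted p = 0.0766). Osmr, the oncostatin M receptor, rose by 0.79 (adjusted p = 0.0186), a call that was lost after a second quantile normalization (0.0542) and without air replicate 3 (0.0607). Of 21 measured genes of this signal 2 rose and 3 fell, with a median of 0.15. The counts were 0 rises without air replicate 3, 1 rise with median-centred arrays, after a second quantile normalization and without any 1 of 120 ppm replicate 1 or air replicate 1, 4 rises without air replicate 5 and 1 fall when only the compared groups were fitted and without air replicate 5.

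Complement and clotting genes were mixed. C1qa and C1qc, subunits of the complement starter C1q, which macrophages make, fell by 0.68 (adjusted p = 0.00101) and 0.54 (adjusted p = 0.00855), and Cfp, which encodes properdin of the alternative pathway, fell by 0.72 (adjusted p = 0.00228). C4b, a complement component made by hepatocytes, rose by 0.29 (adjusted p = 0.00639), a call that was lost with median-centred arrays (0.0567). Of 21 measured complement genes 2 rose and 5 fell, with a median of -0.09. Other settings gave 1 rise with median-centred arrays and over the mean of the gene's probe sets, 4 rises with array weights and 10 falls with median-centred arrays. Of 19 measured clotting genes and plasma inhibitors 5 rose and 0 fell, with a median of 0.12. Processed otherwise, the list held 2 rises with median-centred arrays and 3 rises without any 1 of 120 ppm replicates 1, 3, 4 and 5 or air replicates 2, 3 and 4. Hrg, the plasma protein histidine-rich glycoprotein, stood at 12.99, 12.93, 12.97, 12.85 and 12.88 at 120 ppm and 12.45, 12.36, 12.37, 12.56 and 12.65 in air, a rise of 0.45 ± 0.07 on the log2 scale (SE; adjusted p = 0.00013). The clotting factor gene F5 rose by 0.63 (adjusted p = 0.0089), while F2, prothrombin, changed by 0.01 (adjusted p = 0.912).

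A direct comparison of 120 with 40 ppm called 11 of 45037 probe sets (0.0244%), all higher at 120 ppm. The air mice do not enter the difference, but they enter the spread behind each p. A fit of only these 2 groups called 12 higher and 2 lower. An unadjusted p under 0.05 in limma was met by 2513 of the 45037 probe sets. A share of 0.05 of them would meet it by chance if none differed. The 11 became 7, 2 and 3 without 120 ppm replicates 1, 2 and 3, and 5, 4, 4 and 3 without 40 ppm replicates 1, 3, 4 and 5. They carry 8 gene symbols, and 2 of the 11 carry no single symbol here. One symbol, Ctsf, a lysosomal protease, came through a dim probe set that is not its brightest, with a difference of 0.45 (adjusted p = 0.0398). Read by the probe set of highest mean, 7 genes of 17097 passed (0.0409%), and 3 of these encode acute phase or protease inhibitor proteins of plasma. Orm2, an orosomucoid, stood at 10.32, 10.46, 10.09, 9.92 and 10.70 at 120 ppm, against 8.66, 7.69, 7.75, 7.66 and 7.62 at 40 ppm and 7.72, 7.35, 7.17, 7.73 and 9.02 in air. Its difference from 40 ppm was 2.42 (adjusted p = 0.000112), and the 40 ppm mice lay within the range of the air mice. Prtn3, which encodes proteinase 3 of neutrophil granules, stood at 5.09, 5.67, 5.22, 4.96 and 5.33 at 120 ppm, against 3.78, 3.77, 3.97, 3.51 and 3.55 at 40 ppm and 4.02, 3.76, 3.68, 3.67 and 4.01 in air, a difference from 40 ppm of 1.54 (adjusted p = 8.07e-08). Prg4, a mucin-like secreted lubricant, stood at 9.62, 10.00, 9.67, 9.28 and 9.82 at 120 ppm, against 8.24, 8.31, 8.22, 8.04 and 7.78 at 40 ppm and 8.46, 7.57, 7.88, 7.78 and 9.25 in air. Its difference from 40 ppm was 1.56 (adjusted p = 0.00777), and the call was lost without any 1 of 120 ppm replicate 2 or 40 ppm replicate 5 (up to 0.0576). Cyb561, an electron carrier of vesicle membranes that uses ascorbate, had a difference of 1.13 (adjusted p = 0.00777), and its mean of 5.12 at 40 ppm was below the 5.37 of air. This call was lost without any 1 of 120 ppm replicates 2 and 3 or 40 ppm replicate 5 (up to 0.0576).

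The other 3 calls against 40 ppm were lost under more of the settings. Serpina3n was 1.01 above its 40 ppm level (adjusted p = 0.0153), whose mean was 11.35, and the call was lost without any 1 of 120 ppm replicates 1, 2 and 3 or 40 ppm replicates 2, 3, 4 and 5 (up to 0.0939). Serpina10, which encodes an inhibitor of clotting factor Xa, differed by 0.50 (adjusted p = 0.0489), and this call was lost with median-centred arrays (0.0925), with a robust prior (0.0505), when only the compared groups were fitted (0.0602), with the replicate block (0.0545) and without any 1 of 120 ppm replicates 1, 2, 3, 4 and 5 or 40 ppm replicates 1, 3, 4 and 5 (up to 0.172). Cpne8, a calcium-dependent membrane binder of the copine family, differed by 0.84 (adjusted p = 0.0398) while its 120 ppm and air means were 4.91 and 4.71 (adjusted p = 0.404 for 120 ppm against air, and 0.0383 over the mean of its probe sets), and the call was lost with median-centred arrays (0.0801), after a second quantile normalization (0.135), when only the compared groups were fitted (0.129), with the replicate block (0.0545) and without any 1 of 120 ppm replicates 1, 2 and 3 or 40 ppm replicates 1, 3, 4 and 5 (up to 0.165). Lcn2 and Saa2 were 2.70 and 1.74 above their 40 ppm means without passing (adjusted p = 0.162 and adjusted p = 0.394). In the other direction no probe set passed, in limma as run here, and the smallest p among brighter probe sets belonged to Dnase2a, a lysosomal nuclease, at -1.30 (adjusted p = 0.226), and to Acaa1b, a peroxisomal thiolase, at -0.52 (adjusted p = 0.339). Several of the largest changes against air did not pass against 40 ppm, such as Acot3 at -1.14 (adjusted p = 0.963), Ciart at 0.11 (adjusted p = 1) and Hspb1 at -0.20 (adjusted p = 1), although a p that misses the threshold does not show equal levels.

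**Figure D2:**
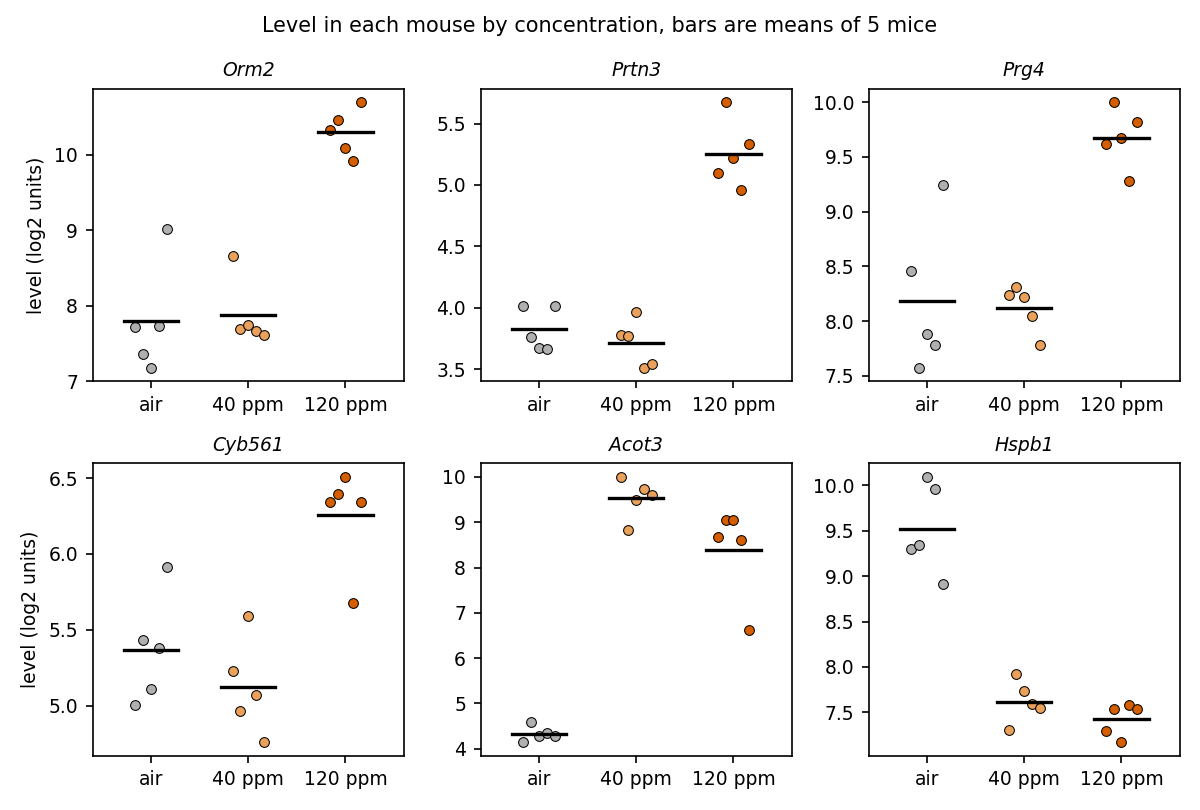
Level (vertical axes, deposited log2 units) of 6 genes in each mouse of the air, 40 ppm and 120 ppm groups, from left to right, with bars at the group means. Orm2, Prtn3, Prg4 and Cyb561 passed for 120 against 40 ppm and have 40 ppm means near or below air. Acot3 and Hspb1 stand apart from air at 40 ppm already, where the array median and the actin 3' excess do so as well.

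Neutrophil granule and surface genes other than Prtn3 and Lcn2 did not pass. Of 16 measured neutrophil genes 2 rose (12.5%, against 11.2% of all genes), Prtn3 and Lcn2, and 0 fell. With other choices there were 1 fall with array weights and without any 1 of air replicates 2 and 4 and 2 falls with median-centred arrays and without air replicate 1. The defining granule gene Camp changed by -0.19 (adjusted p = 0.44), the receptor genes Cxcr2 and Csf3r by 0.04 (adjusted p = 0.83) and 0.07 (adjusted p = 0.603), and the protease gene Mmp9 by 0.02 (adjusted p = 0.939). Summed over the list, levels per gene averaged 3.92 to 4.04 at 120 ppm and 3.43 to 3.80 in air, with Prtn3 and Lcn2 counted. Only 5 of the 16 were among the brighter probe sets. The others were near the lower end of the scale, where a change can be missed.

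Clock genes changed in both directions. The arm that PER proteins belong to is driven by CLOCK and BMAL1 through a DNA word called the E-box, CACGTG, and part of its output through the D-box, TTATGNAA, where N is any base. The 250 bases before and 50 after the start site, from RefSeq's table for GRCm38.p6, were found for 11 of the 14 measured members and were read on both strands, each motif by itself, so that a base can count for more than 1. Some genes have more than 1 start site, which makes 14 promoters in all. The E-box stood in 6 of 14 promoters, in Bhlhe41, Ciart, Per1, Tef and Tspan4, against 7.15% of all 32851 promoters in the table. The D-box stood in 2 of 14, in Per1 and Per3, against 3.385% of all, and of 8 promoters of the opposite BMAL1 arm the E-box stood in 1 and the D-box in 0. These are matches of letters and no measured binding. The stretches of Ciart, at chr3:95882259-95882352 on the minus strand, and Per1, at chr11:69098775-69098940 on the plus strand, are shown because the first holds the most E-box matches of these promoters and the second is the one with both motifs, with the motif letters in capitals. Both lie upstream of the start site.
Ciart: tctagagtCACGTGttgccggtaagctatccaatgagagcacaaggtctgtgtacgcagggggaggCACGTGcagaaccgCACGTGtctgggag
Per1: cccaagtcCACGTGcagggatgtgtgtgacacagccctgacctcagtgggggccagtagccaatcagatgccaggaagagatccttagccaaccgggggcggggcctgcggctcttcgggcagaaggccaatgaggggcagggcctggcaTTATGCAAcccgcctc

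Of 14 measured members of the PER arm, 12 rose and 0 fell at 120 ppm, with a median change of 1.32. Ciart, a repressor of the clock, stood at 7.23, 6.32, 6.29, 5.38 and 6.01 at 120 ppm, against 3.83, 3.17, 3.27, 3.57 and 3.53 in air, a rise of 2.77 ± 0.35 on the log2 scale (SE; adjusted p = 6.79e-06). Usp2, a deubiquitinating enzyme, stood at 9.09, 8.44, 8.62, 7.97 and 8.53 at 120 ppm, against 5.92, 5.84, 5.18, 5.95 and 6.20 in air, a rise of 2.71 ± 0.31 on the log2 scale (SE; adjusted p = 8.77e-07). Neither gene's groups overlapped. Per3, a core period gene, stood at 5.16, 5.43, 6.67, 6.23 and 6.21 at 120 ppm, against 2.97, 3.02, 3.60, 4.43 and 4.84 in air. Dbp, a transcription factor that binds the D-box, varied widely, at 7.06, 7.92, 8.56, 7.51 and 9.15 at 120 ppm, against 2.98, 3.18, 2.80, 6.71 and 7.20 in air, so that its groups overlapped, and it rose by 3.46 ± 0.93 on the log2 scale (SE; adjusted p = 0.00899). Tef, a relative of Dbp, rose by 1.74 (adjusted p = 0.000158), Nr1d2, which encodes the repressor REV-ERB beta, by 1.57 (adjusted p = 0.0114), and Hlf, the third factor of the Dbp family, by 1.24 (adjusted p = 1.8e-06). Bhlhe40 and Bhlhe41, repressors that also bind E-boxes, changed by 0.02 (adjusted p = 0.962) and 0.09 (adjusted p = 0.544) without passing.

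The list of the opposite arm includes genes repressed by REV-ERB proteins, such as Arntl. Of 6 measured members 3 fell and 0 rose. Npas2, a partner of BMAL1, stood at 3.85, 3.28, 3.02, 3.01 and 3.44 at 120 ppm, against 5.69, 5.89, 5.04, 5.25 and 3.86 in air, a fall of 1.83 ± 0.34 on the log2 scale (SE; adjusted p = 0.000458). Arntl, which encodes BMAL1, fell by 1.09 (adjusted p = 0.00328) in its brightest probe set, a call that was lost over the mean of the gene's probe sets (0.094). Nfil3, a repressor of D-box genes, fell by 1.12 (adjusted p = 0.00895). Clock, Cry1 and Gys2, the last a liver glycogen synthase, changed by 0.05 (adjusted p = 0.863), -0.47 (adjusted p = 0.166) and 0.05 (adjusted p = 0.841). The call of Cry1 was gained without air replicate 5 (0.0146).

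Some clock genes also ran with the title numbers inside groups, where concentration is constant. Over all genes 531 had a slope on the place of the number, 1 to 5, within groups (3.11%; 2.32% of probe sets). In the PER arm 6 of 14 did and in the BMAL1 arm 4 of 6. Other lists held such genes too. They were 7 of 27 in ribosome assembly, 6 of 21 glucocorticoid targets, 4 of 30 hepatocyte factors and 3 of 20 heat shock genes. Among acute phase genes they were 0 of 24. The slope of Dbp was 0.78 per place (adjusted p = 0.000118), of Nr1d2 0.39 (adjusted p = 1.88e-05), of Per3 0.28 (adjusted p = 0.00454) and of Npas2 -0.25 (adjusted p = 0.00231), each in the direction of its change at 120 ppm. Ciart and Usp2, whose groups did not overlap, had slopes of 0.03 and 0.06 (adjusted p = 0.913 and adjusted p = 0.742). Over the study the numbers climb with the concentration, so across groups the part of the number in these changes cannot be told apart from that of styrene.

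**Figure D3:**
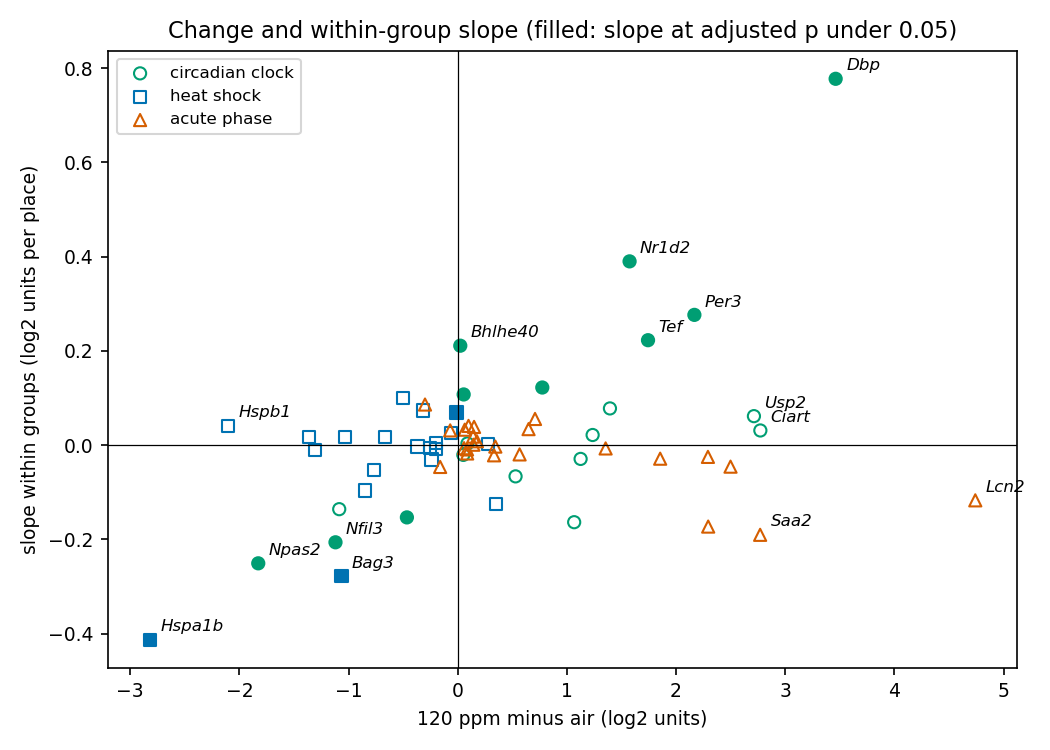
Change at 120 ppm minus air (horizontal axis, log2 units) against the slope within groups (vertical axis, log2 units per place of the title number) for the clock, heat shock and acute phase genes measured. Dbp lies at 3.46 and 0.78, Hspa1b at -2.82 and -0.41, while Lcn2, Usp2, Ciart and Hspb1 lie far out along the horizontal axis with slopes between -0.12 and 0.06.

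Many heat shock chaperone genes fell. HSF1 binds repeats of the word NGAAN in opposite directions, and GAANNTTC was searched for here on both strands. It stood in 9 of 21 promoters of 16 listed chaperone genes, in Bag3, Chordc1, Dnaja1, Hspa1b, Hspb1, Hspb8, Hspe1 and Hsph1, against 7.86% of all promoters. Shown are the stretches of the 2 chaperone genes with the largest falls, Hspb1 at chr5:135887794-135887837 on the plus strand and Hspa1b at chr17:34959327-34959350 on the minus strand, with the matches in capitals.
Hspb1: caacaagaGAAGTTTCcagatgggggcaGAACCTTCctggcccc
Hspa1b: aactgctgGAAGATTCctggcccc

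Of 20 measured heat shock genes 10 fell and 0 rose, with a median change of -0.44, and 11 were lower without overlap. Over all genes 7.99% fell and 6.14% were lower without overlap. Counts that differed were 1 rise when only the compared groups were fitted. Hspb1, a small chaperone, stood at 7.29, 7.53, 7.17, 7.58 and 7.54 at 120 ppm, against 9.30, 9.34, 10.10, 9.97 and 8.91 in air, the widest downward gap of all genes at 1.33, and all 4 of its probe sets fell. Its change was a fall of 2.10 ± 0.27 on the log2 scale (SE; adjusted p = 7.12e-06). Hspa1b, the inducible HSP70, stood at 6.91, 7.33, 7.24, 7.63 and 6.92 at 120 ppm, against 10.19, 9.78, 11.71, 10.43 and 8.03 in air, a fall of 2.82 ± 0.62 on the log2 scale (SE; adjusted p = 0.00189), and it had a slope of -0.41 per place within groups (adjusted p = 0.00982). Its near-identical neighbour Hspa1a can share its probes. Hsp90aa1, the inducible HSP90, fell by 1.36 (adjusted p = 0.00875), the co-chaperone Stip1, which joins HSP70 and HSP90, by 1.03 (adjusted p = 6.24e-06), and Hsph1, which reloads HSP70, by 1.30 (adjusted p = 0.00108). The steady forms did not pass, with Hspa8, the constant HSP70, at -0.24 (adjusted p = 0.11), called with median-centred arrays (0.0326), and the mitochondrial Hspa9 at -0.06 (adjusted p = 0.793).

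The chaperonin TRiC, which folds tubulin and actin, had 3 falls and 0 rises among 8 measured subunits. Cct7 fell by 0.60 (adjusted p = 1.79e-05), Cct3 by 0.35 (adjusted p = 0.00805) and Cct5 by 0.33 (adjusted p = 0.0185). The changes of Tcp1, Cct2, Cct4, Cct6a and Cct8 were 0.03, 0.03, 0.15, -0.03 and -0.07, none of which passed. Cirbp, an RNA-binding protein that goes up in the cold, stood at 7.41, 6.27, 6.33, 6.30 and 6.27 at 120 ppm, against 5.10, 6.09, 4.62, 4.96 and 5.02 in air, a rise of 1.36 ± 0.27 on the log2 scale (SE; adjusted p = 0.000803), and its relative Rbm3 changed by 0.42 (adjusted p = 0.173), called when only the compared groups were fitted (0.0335).

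Most tubulin genes fell. Of 13 measured tubulins 9 fell, and the count of rises was 1. Elsewhere the counts were 0 rises with median-centred arrays, after a second quantile normalization, with a prior variance that follows the mean, with the replicate block and without any 1 of 120 ppm replicates 1 and 4 or air replicates 1, 2, 3 and 5. Tuba1a stood at 5.35, 5.91, 5.68, 5.63 and 5.95 at 120 ppm, against 6.95, 7.80, 7.71, 7.60 and 7.60 in air, a fall of 1.83 ± 0.24 on the log2 scale (SE; adjusted p = 7.11e-06) with a gap of 1.01 between the groups. Tubb2a stood at 8.41, 8.16, 8.09, 9.01 and 7.79 at 120 ppm, against 10.98, 10.96, 10.78, 10.31 and 9.21 in air, a fall of 2.15 ± 0.30 on the log2 scale (SE; adjusted p = 1.79e-05). Tuba1b, Tubb4b, Tubb5 and Tubb6 fell by 1.26, 1.08, 1.12 and 1.10, with adjusted p-values from 1e-05 to 9.8e-05. The rare tubulins Tubd1 and Tube1, of centrioles, changed by 0.13 (adjusted p = 0.546) and 0.27 (adjusted p = 0.0764), Tube1 being called when only the compared groups were fitted (0.031).

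Some actin genes and collagens fell as well. Actb, the main cytoplasmic actin, stood at 12.42, 12.45, 12.55, 12.52 and 12.68 at 120 ppm, against 13.04, 12.98, 12.98, 12.92 and 12.87 in air, a fall of 0.43 ± 0.08 on the log2 scale (SE; adjusted p = 0.000309), and the actin 3' excess given above was measured on the same transcript. Myl9, a myosin light chain of contractile cells, fell by 1.15 (adjusted p = 0.000577) and Cotl1, an actin filament binder, by 0.83 (adjusted p = 0.000755). Of 28 measured actin genes 8 fell, and 1 rose. Settings that moved these counts gave 0 rises with median-centred arrays and without air replicate 3, 2 rises among the brighter probe sets, with the replicate block and without any 1 of 120 ppm replicate 1 or air replicates 4 and 5, 3 rises with array weights and 13 falls with median-centred arrays. Of 25 collagen and matrix genes 10 fell, and 0 rose. The list then held 1 rise with a prior variance that follows the mean, with array weights and without any 1 of 120 ppm replicates 1 and 5 or air replicates 1 and 2. Serpinh1, which folds collagen on its way to secretion, stood at 5.00, 5.47, 5.79, 5.76 and 5.64 at 120 ppm, against 6.55, 7.34, 7.37, 7.42 and 7.04 in air. Col3a1, a fibre collagen, fell by 1.41 (adjusted p = 0.00114), Col4a1, of basement membranes, by 1.02 (adjusted p = 1.14e-05) and Sparc, a binder of collagen, by 0.84 (adjusted p = 0.000334). Stellate cells make these collagens. Of 14 measured markers of stellate cells and fibroblasts 3 fell and 1 rose, with a median of -0.05. Under other processing it had 0 rises with median-centred arrays, after a second quantile normalization and without any 1 of 120 ppm replicate 1 or air replicate 3, 1 fall without any 1 of air replicates 2 and 3 and 5 falls with median-centred arrays. Col3a1 is one of the falls, beside Ngfr, a neurotrophin receptor, at -0.51 (adjusted p = 0.0195) and Colec11, a collectin, at -0.47 (adjusted p = 0.0149). The call of Ngfr was lost when only the compared groups were fitted (0.0577) and without any 1 of 120 ppm replicate 2 or air replicates 2 and 3 (up to 0.0778), and that of Colec11 without any 1 of air replicates 2 and 3 (up to 0.0601). Lrat, which stores vitamin A, and the proteoglycan gene Dcn, which are defining markers, changed by 0.43 (adjusted p = 0.274) and 0.01 (adjusted p = 0.936) without passing. The part of these cells in the collagen change was not tested. In a piece of whole liver, fewer cells of a type and less RNA per cell cannot be told apart.

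**Figure D4:**
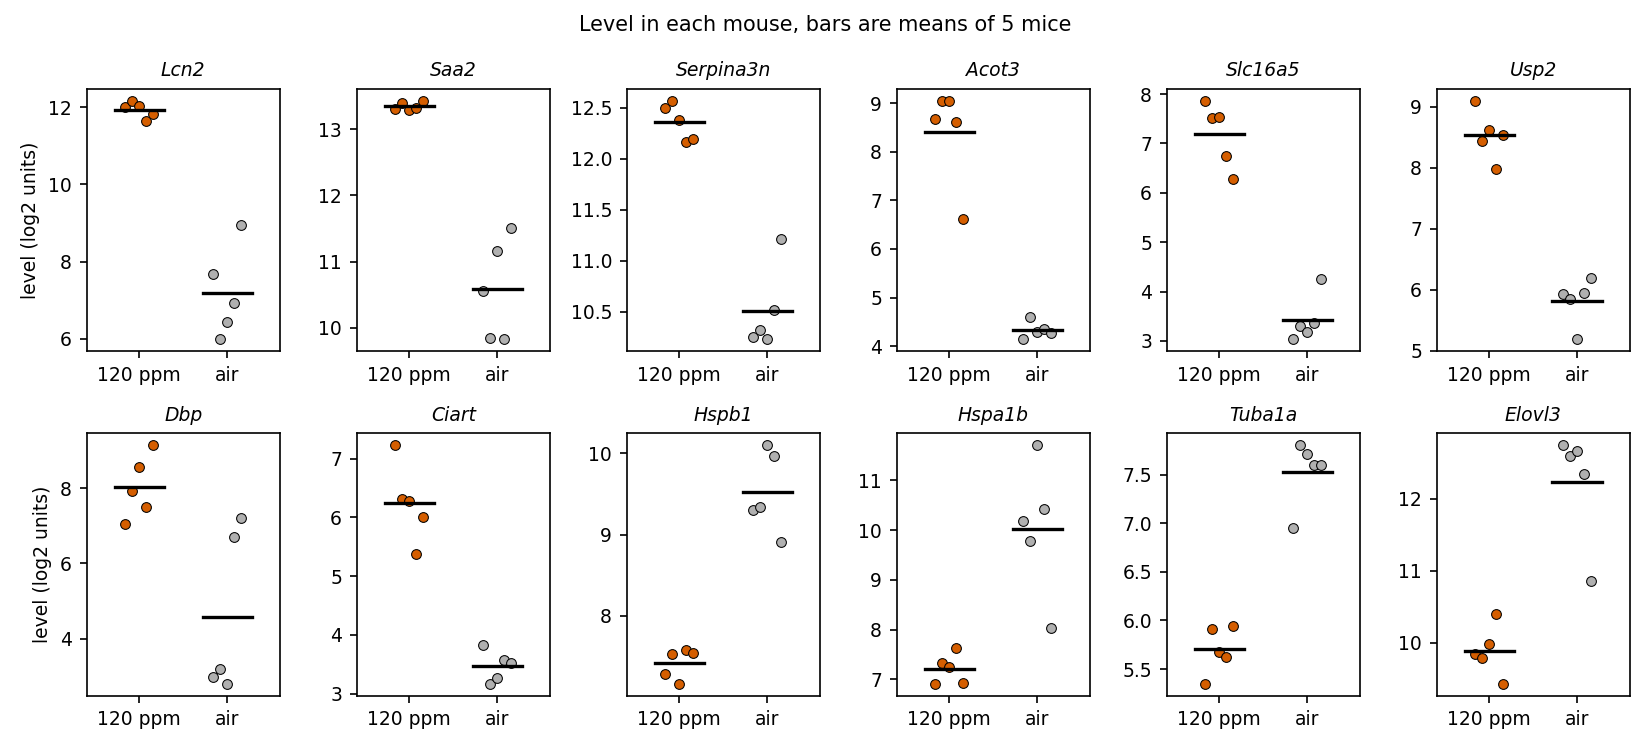
Level (vertical axes, deposited log2 units) of 12 genes in each 120 ppm mouse, left, and each air mouse, right, with bars at the means of 5 mice. The groups do not overlap in any panel except Dbp, and Lcn2 and Saa2 are more scattered in air than at 120 ppm.

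Some genes of the endoplasmic reticulum that belong to the unfolded protein response fell too. The ER stress element that ATF6 and NF-Y bind stood in 9 of 24 promoters of 23 listed genes, in Calr, Canx, Creld2, Derl3, Dnajc3, Hsp90b1, Hspa5, Pdia6 and Syvn1, against 0.1187% of all promoters on either strand. The stretches of Creld2, the largest fall of the list, at chr15:88819512-88819546, and of Hspa5, which encodes the chaperone BiP, at chr2:34772017-34772051, both on the plus strand, show it in capitals, in Creld2 as the reverse complement.
Creld2: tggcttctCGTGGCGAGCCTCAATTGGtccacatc
Hspa5: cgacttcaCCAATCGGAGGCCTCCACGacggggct

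Of 27 measured genes of this list 9 fell and 1 rose, with a median of -0.30. This changed to 15 falls with median-centred arrays. Creld2 stood at 8.15, 7.75, 8.34, 8.97 and 7.77 at 120 ppm, against 9.50, 9.74, 10.72, 10.08 and 9.36 in air, a fall of 1.68 ± 0.44 on the log2 scale (SE; adjusted p = 0.00807). Manf, a secreted stress protein, stood at 9.53, 9.23, 9.57, 10.13 and 9.37 at 120 ppm, against 10.84, 11.04, 11.19, 10.92 and 10.47 in air. Hyou1, a large chaperone, fell by 1.06 (adjusted p = 0.000139), and Syvn1, a ubiquitin ligase that clears misfolded proteins, fell by 1.06 (adjusted p = 0.0189), a call that was lost without air replicate 3 (0.0693). Hspa5 fell by 0.62 (adjusted p = 0.028), a call that was lost without any 1 of 120 ppm replicates 1, 2 and 3 or air replicate 3 (up to 0.0837). Derl3, another part of the clearance machinery, was the 1 rise, at 8.18, 8.95, 8.22, 7.71 and 8.44 at 120 ppm, against 6.94, 6.44, 7.28, 6.71 and 5.93 in air (adjusted p = 0.00247). P4hb, the disulfide isomerase, changed by 0.12 (adjusted p = 0.257).

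Several lists of the machinery that makes and moves proteins had medians below 0 and more falls than rises. Among them were those of ribosomal proteins, of tRNA synthetases and of the translocon and transport vesicles. Of 52 measured mitochondrial ribosomal proteins 23 fell and 0 rose, with a median of -0.23. The counts were 13 falls without air replicate 3 and 15 falls without air replicate 2. Mrps18b, of the small subunit, had the largest of these falls at 0.62 (adjusted p = 8.92e-05), followed by Mrps25 at 0.57 (adjusted p = 0.000326). Of 64 cytosolic ribosomal proteins 20 fell and 0 rose, with a median of -0.12. Other settings gave 10 falls when only the compared groups were fitted, 12 falls without air replicate 2, 13 falls without air replicate 3 and 44 falls with median-centred arrays. Rpl13, of the large subunit, fell by 0.31 (adjusted p = 0.000816) and Rps19, of the small one, by 0.28 (adjusted p = 0.00289), while Rps6 changed by -0.03 (adjusted p = 0.816). Many ribosomal protein genes have near-identical processed copies that probes can read with them. Of 27 measured translation factors 4 rose and 4 fell (14.8% each, against 11.2% and 7.99% of all genes), with a median of 0.02. Processed otherwise, the list held 2 rises with median-centred arrays and without air replicate 2 and 2 falls over the mean of the gene's probe sets. Eif3b, of an initiation complex, fell by 0.34 (adjusted p = 0.00162), while Pabpc1, which binds the poly(A) tail, rose by 0.33 (adjusted p = 0.000594), a call that was lost over the mean of the gene's probe sets (0.143). Of 27 measured genes of ribosome assembly 3 rose and 3 fell (11.1% each, near the shares of all genes), with a median of 0.09. With other choices there were 1 rise with median-centred arrays and without any 1 of 120 ppm replicates 3 and 4 or air replicates 1, 4 and 5. Bop1, which processes ribosomal RNA, fell by 0.60 (adjusted p = 0.000461), and Wdr43, of the same pathway, rose by 0.66 (adjusted p = 0.00532).

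In oxidative phosphorylation, the respiratory chain and ATP synthase, 16 of 68 measured genes fell and 0 rose. Counts that differed were 1 rise over the mean of the gene's probe sets and 38 falls with median-centred arrays. Ndufs8, of complex I, fell by 0.36 (adjusted p = 0.00291), while Cox4i1, of complex IV, changed by -0.12 (adjusted p = 0.306). Of 34 proteasome genes 5 fell and 0 rose. Elsewhere the counts were 1 rise over the mean of the gene's probe sets, 3 falls after a second quantile normalization and without any 1 of 120 ppm replicates 1 and 3 or air replicates 1 and 5, 10 falls with array weights and 17 falls with median-centred arrays. Psmc4, of the cap, fell by 0.31 (adjusted p = 0.00749) and Psmb5, a catalytic subunit, by 0.28 (adjusted p = 0.00554). Of 46 genes of the translocon and of transport vesicles 12 fell and 3 rose. Settings that moved these counts gave 7 falls without any 1 of 120 ppm replicate 5 or air replicates 2 and 3. The COPII coat gene Sec13 fell by 0.50 (adjusted p = 0.000177) and its partner Sec23a rose by 0.50 (adjusted p = 0.000392). The translocon gene Ssr2 fell by 0.59 (adjusted p = 0.00112) and Copg1, of the COPI coat, by 0.56 (adjusted p = 0.000583). The array medians differed by 0.095 on the same scale.

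**Figure D5:**
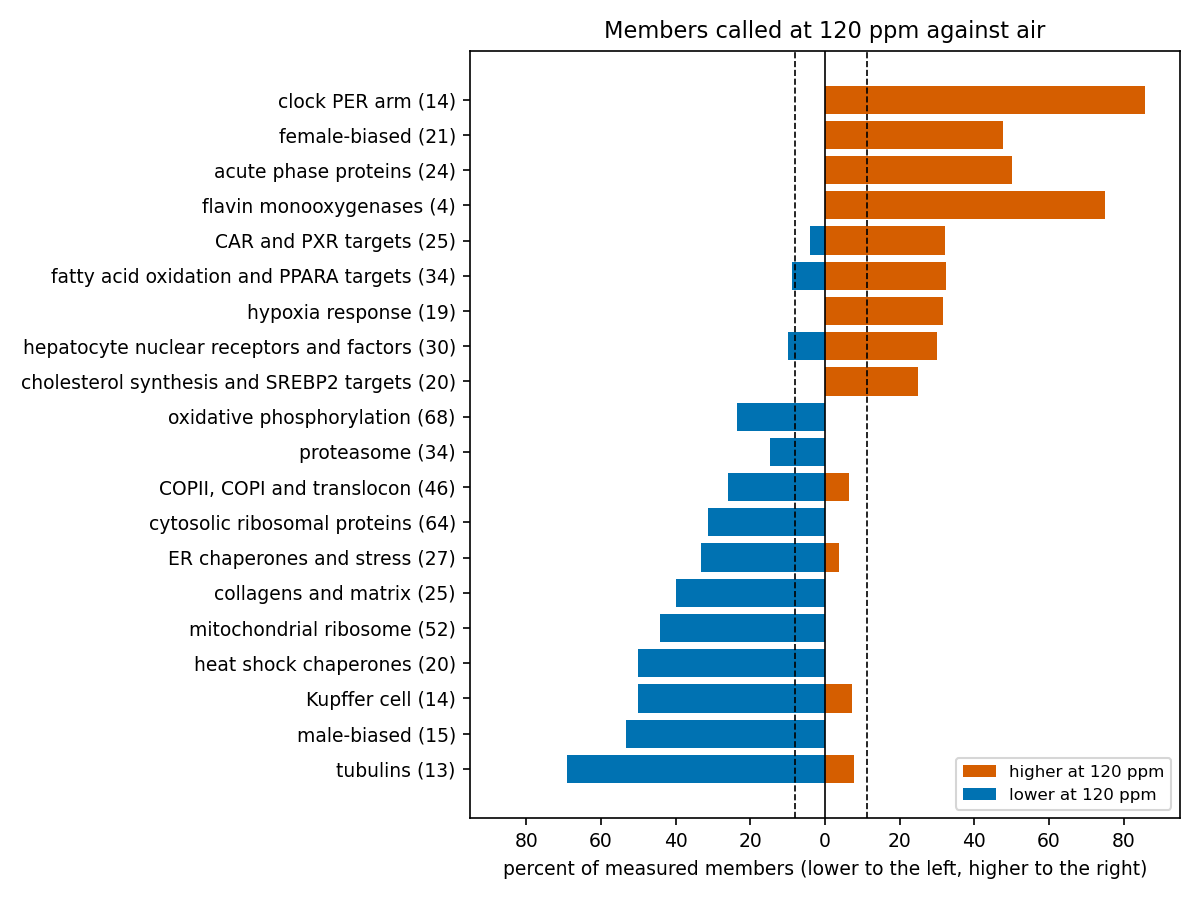
Percent of measured members that were higher (orange, to the right) and lower (blue, to the left) at 120 ppm, at an adjusted p under 0.05, for 20 gene lists, with the number measured beside each name. Dashed lines mark the percentages over all 17097 genes, 11.2% higher and 7.99% lower. The 20 were picked from 80 lists written with earlier results of these data known. Lists without calls, such as bile duct genes and T and NK cell genes, are not shown. The PER arm, flavin monooxygenases and acute phase proteins reach furthest to the right, and tubulins and male-biased genes to the left.

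Drug metabolism changed in both directions, with rises among nuclear receptor targets and falls among glutathione transferases and antioxidant genes. CAR and PXR are nuclear receptors that sense foreign chemicals. Of 25 measured target genes, with the gene of CAR itself counted among them, 8 rose and 1 fell, with a median of 0.33. The list then held 2 falls with median-centred arrays. Nr1i3, which encodes CAR, stood at 10.15, 10.33, 10.03, 10.15 and 9.83 at 120 ppm, against 8.33, 8.64, 8.50, 8.76 and 8.87 in air, a rise of 1.47 ± 0.20 on the log2 scale (SE; adjusted p = 1.14e-05). Cyp3a13 rose by 1.32 (adjusted p = 0.000187), Cyp2c39 by 1.30 (adjusted p = 0.000365) and Cyp2c38 by 1.13 (adjusted p = 0.00624), all cytochromes P450. Cyp2c55 went the other way, at 4.98, 5.08, 5.02, 5.82 and 6.33 at 120 ppm, against 8.18, 6.49, 8.33, 7.25 and 9.17 in air, a fall of 2.44 ± 0.48 on the log2 scale (SE; adjusted p = 0.000779). The abundant P450 genes Cyp3a11 and Cyp2c50 changed by 0.24 (adjusted p = 0.45) and 0.17 (adjusted p = 0.235). Related P450 genes are alike in sequence and probes can read more than 1.

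Among flavin monooxygenases, which oxidise nitrogen and sulfur in foreign compounds, 3 of 4 rose. Fmo2 stood at 7.19, 6.85, 6.78, 7.12 and 5.83 at 120 ppm, against 4.34, 3.86, 4.47, 4.17 and 4.38 in air, a rise of 2.51 ± 0.34 on the log2 scale (SE; adjusted p = 1.44e-05), Fmo4 rose by 1.05 (adjusted p = 0.000706) and Fmo1 by 0.59 (adjusted p = 0.00103), while Fmo5 changed by 0.01 (adjusted p = 0.974). Of 14 measured genes of sulfation 4 rose and 1 fell, with a median of 0.18. Under other processing it had 0 falls without any 1 of 120 ppm replicate 3 or air replicate 3, 2 falls after a second quantile normalization and without any 1 of 120 ppm replicate 5 or air replicate 2 and 4 falls with median-centred arrays. Sult1e1, which sulfates estrogens, rose by 1.46 (adjusted p = 0.0123), a call that was lost without 120 ppm replicate 1 (0.057). Sult1d1 and Sult1b1 rose by 1.27 (adjusted p = 0.00781) and 0.98 (adjusted p = 0.00145) and Sult1a1 by 0.86 (adjusted p = 0.00683), while Papss1, which makes the sulfate donor, fell by 0.56 (adjusted p = 0.0271), a call that was lost without any 1 of 120 ppm replicates 3 and 5 or air replicates 2 and 3 (up to 0.0746).

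Of 27 measured drug and anion transporters 5 rose and 3 fell, with a median of 0.12. This changed to 2 rises with median-centred arrays and without any 1 of air replicates 1 and 3 and 3 rises without any 1 of 120 ppm replicates 1, 2 and 4 or air replicate 2. Slc22a7, a transporter of organic anions, stood at 7.82, 7.98, 8.71, 7.43 and 8.48 at 120 ppm, against 9.36, 9.08, 9.69, 9.69 and 9.87 in air, a fall of 1.46 ± 0.31 on the log2 scale (SE; adjusted p = 0.00163), and its relative Slc22a30 fell by 1.05 (adjusted p = 0.00295). Slco2a1, a prostaglandin carrier, fell by 0.73 (adjusted p = 0.000112). Slc22a26, another organic anion carrier, rose by 0.70 (adjusted p = 0.000238) and Abcc2, the canalicular export pump, by 0.48 (adjusted p = 0.00168). The pumps Abcc3 and Abcc4 rose by 0.50 (adjusted p = 0.0445) and 0.49 (adjusted p = 0.0347). The call of Abcc3 was lost with median-centred arrays (0.101) and without any 1 of 120 ppm replicates 1, 2, 3, 4 and 5 or air replicates 1, 2 and 3 (up to 0.128), and that of Abcc4 with median-centred arrays (0.0892), after a second quantile normalization (0.109) and without any 1 of 120 ppm replicates 1, 2, 4 and 5 or air replicates 1, 2, 3 and 4 (up to 0.0931).

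Glutathione transferases couple glutathione to reactive compounds, epoxides among them. Of 24 measured genes of these enzymes and of glutathione synthesis 9 fell and 2 rose, with a median of -0.20. The counts were 1 rise with median-centred arrays, after a second quantile normalization, among the brighter probe sets, when only the compared groups were fitted and without any 1 of 120 ppm replicates 1 and 2 or air replicates 1, 2, 3 and 5. Gstm3 stood at 9.08, 9.03, 8.89, 9.23 and 9.41 at 120 ppm, against 10.71, 9.78, 10.42, 10.10 and 10.90 in air, a fall of 1.25 ± 0.32 on the log2 scale (SE; adjusted p = 0.00649). Gsta4 fell by 1.04 (adjusted p = 1.73e-05) and Gclc, the first enzyme of glutathione synthesis, by 0.65 (adjusted p = 0.00232), while Gstt2 rose by 0.85 (adjusted p = 0.000281) and the abundant Gstm1 changed by -0.20 (adjusted p = 0.155), called with median-centred arrays (0.0297). Mu class genes are alike in sequence and probes can read more than 1. Of 28 measured targets of the antioxidant factor NRF2 11 fell and 4 rose, with a median of -0.13. Other settings gave 1 rise with median-centred arrays and without any 1 of 120 ppm replicates 1 and 2 or air replicates 1, 2 and 3 and 2 rises without any 1 of 120 ppm replicates 3 and 5. Osgin1, an oxidative stress target, fell by 1.31 (adjusted p = 0.00641), Me1, which supplies NADPH, by 0.98 (adjusted p = 0.000477) and Tkt, of the pentose phosphate route, by 0.52 (adjusted p = 0.000181). Cat, the catalase gene, changed by -0.03 (adjusted p = 0.778). Of 15 measured genes of styrene metabolism 4 fell and 2 rose, with a median of -0.01. Processed otherwise, the list held 0 rises with median-centred arrays and 1 rise after a second quantile normalization and without any 1 of 120 ppm replicates 1, 3 and 4 or air replicates 1, 2 and 3. The P450 genes Cyp1a2 and Cyp2f2 fell by 0.67 (adjusted p = 6.92e-05) and 0.29 (adjusted p = 0.00138) and Ephx1, which hydrolyses epoxides in microsomes, by 0.52 (adjusted p = 0.00801). Cyp2e1, a P450 that oxidises small solvents, rose by 0.21 (adjusted p = 0.00628), a call that was lost with median-centred arrays (0.141). Of 22 measured alcohol and aldehyde dehydrogenases 6 rose and 0 fell, with a median of 0.10. With other choices there were 2 rises with median-centred arrays, 3 rises without any 1 of 120 ppm replicates 1 and 3 or air replicates 2 and 3 and 1 fall with median-centred arrays and over the mean of the gene's probe sets. Aldh6a1, a mitochondrial member, rose by 0.47 (adjusted p = 0.00157).

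Nuclear receptors and other hepatocyte factors rose more often than they fell, 9 against 3 of 30 measured. Counts that differed were 1 fall without air replicate 2, and 6 rises beside 5 falls with median-centred arrays. Prox1, a homeobox factor, rose by 1.26 (adjusted p = 0.000326) in all 3 of its probe sets, Nr1h4, the bile acid receptor FXR, by 0.89 (adjusted p = 0.00104) and Esr1, the estrogen receptor, by 0.75 (adjusted p = 0.00237). Hnf4a, the main hepatocyte factor, changed by 0.14 (adjusted p = 0.248), and Ppara, the fatty acid receptor, by 0.23 (adjusted p = 0.416). Trim24, a ubiquitin ligase that binds nuclear receptors, rose by 2.05 (adjusted p = 0.000177).

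Sex-biased liver genes changed in these males, in opposite directions on the female and the male side. Of 21 measured genes that are higher in female mouse liver 10 rose and 0 fell, with a median of 0.60. Elsewhere the counts were 6 rises among the brighter probe sets and 1 fall with median-centred arrays and when only the compared groups were fitted. Of 15 that are higher in males 8 fell and 0 rose, with a median of -0.53. Settings that moved these counts gave 5 falls without any 1 of 120 ppm replicates 1 and 2. Acot3, a peroxisomal thioesterase, stood at 8.68, 9.05, 9.04, 8.60 and 6.61 at 120 ppm, against 4.14, 4.60, 4.29, 4.35 and 4.27 in air, a rise of 4.07 ± 0.68 on the log2 scale (SE; adjusted p = 0.000137). Slc16a5, a monocarboxylate carrier, stood at 7.86, 7.51, 7.54, 6.76 and 6.28 at 120 ppm, against 3.03, 3.31, 3.18, 3.37 and 4.25 in air, a gap of 2.03 between the groups. Atp6v0d2, a proton pump subunit, stood at 6.80, 6.65, 6.98, 6.10 and 6.69 at 120 ppm, against 4.67, 4.83, 4.54, 4.87 and 5.46 in air, a rise of 1.77 ± 0.19 on the log2 scale (SE; adjusted p = 4.74e-07). Of the male side, Elovl3, a fatty acid elongase that also follows the clock, stood at 9.85, 9.79, 9.99, 10.40 and 9.43 at 120 ppm, against 12.75, 12.60, 12.67, 12.34 and 10.85 in air, a fall of 2.35 ± 0.36 on the log2 scale (SE; adjusted p = 5.45e-05). Hsd3b5, a steroid dehydrogenase, fell by 1.45 (adjusted p = 0.00575) and Nudt7, a peroxisomal CoA hydrolase, by 1.27 (adjusted p = 0.000412).

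Pituitary growth hormone sets this sex difference through STAT5 and BCL6. Bcl6, a repressor, stood at 6.31, 5.72, 4.22, 4.15 and 5.70 at 120 ppm, against 7.79, 9.30, 8.66, 6.93 and 6.62 in air, a fall of 2.64 ± 0.72 on the log2 scale (SE; adjusted p = 0.00992), and its slope within groups was -0.45 (adjusted p = 0.0242). Stat5b fell by 0.77 (adjusted p = 0.00112). Of 12 measured genes of growth hormone signalling 1 rose and 2 fell. The list then held 0 rises after a second quantile normalization and without any 1 of 120 ppm replicates 2, 3 and 4 or air replicates 1 and 2 and 2 rises over the mean of the gene's probe sets. Socs2, a target of STAT5, was scattered, with a change of 1.63 (adjusted p = 0.115), called without air replicate 3 (0.0446), and Igf1, the growth factor, changed by 0.07 (adjusted p = 0.571), called over the mean of the gene's probe sets (0.0291).

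Lipid genes differed by branch in the direction of their calls. Of 34 genes of fatty acid oxidation and PPARA 11 rose and 3 fell. Under other processing it had 7 rises with median-centred arrays and 5 falls with median-centred arrays. Cpt1a, the gate of fatty acids into mitochondria, stood at 11.48, 11.31, 11.38, 11.07 and 11.06 at 120 ppm, against 10.06, 10.48, 10.53, 10.47 and 10.64 in air, a rise of 0.82 ± 0.16 on the log2 scale (SE; adjusted p = 0.000565). Cyp4a31, a fatty acid hydroxylase, rose by 1.63 (adjusted p = 0.000461), while Acaa1b fell by 0.67 (adjusted p = 0.000908). Of 23 measured genes of fatty acid synthesis 7 fell and 0 rose, with a median of -0.32. Apart from Elovl3, given above, Acacb, an acetyl-CoA carboxylase, fell by 1.03 (adjusted p = 0.001), Elovl1, an elongase, by 0.69 (adjusted p = 0.000344) and Scd1, a desaturase, by 0.50 (adjusted p = 0.00956), while Fasn, the fatty acid synthase, changed by -0.62 (adjusted p = 0.0864), called with the replicate block (0.0247) and without 120 ppm replicate 1 (0.0434). In cholesterol synthesis 5 of 20 rose and 0 fell. This changed to 3 rises with median-centred arrays and without any 1 of 120 ppm replicates 1, 2 and 3 or air replicate 2 and 1 fall with median-centred arrays, with array weights and without air replicate 1. Lss, which closes the sterol rings, rose by 1.10 (adjusted p = 0.0125), and Hsd17b7, a later enzyme, by 0.98 (adjusted p = 0.000477). Fdps, an early enzyme, changed by -0.07 (adjusted p = 0.844). Of 21 measured genes of lipoproteins 3 rose and 1 fell (14.3% and 4.76%, near the 11.2% and 7.99% of all genes). The counts were 2 falls with median-centred arrays and after a second quantile normalization. Apoa4, an apolipoprotein, rose by 1.40 (adjusted p = 0.00334) and Apob, the core of secreted lipoproteins, by 0.78 (adjusted p = 0.000365), while Apom fell by 0.41 (adjusted p = 0.000115). Mfsd2a, a carrier of lysophosphatidylcholine, rose by 1.87 (adjusted p = 0.022), a call that was lost without any 1 of 120 ppm replicate 1 or air replicates 1 and 3 (up to 0.0874).

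In bile acid metabolism 5 of 24 genes rose and 2 fell (20.8% and 8.33%, against 11.2% and 7.99% of all genes). Other settings gave 1 fall without any 1 of 120 ppm replicates 1, 2 and 4 or air replicate 2. Klb, the coreceptor of fibroblast growth factors of the gut and liver, rose by 1.07 (adjusted p = 7.8e-05), Akr1d1, a bile acid reductase, by 1.04 (adjusted p = 0.0101) and Abcg5, a sterol exporter, by 0.77 (adjusted p = 0.00805). Cyp27a1, which oxidises the cholesterol side chain, changed by -0.16 (adjusted p = 0.127), called with median-centred arrays (0.0167).

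Of fasting and glucose genes 3 of 17 rose and 4 fell. Processed otherwise, the list held 5 rises when only the compared groups were fitted. Igfbp1, a binder of insulin-like growth factors that goes up in fasting, stood at 11.59, 10.53, 8.95, 10.25 and 10.39 at 120 ppm, against 11.74, 12.45, 11.90, 11.59 and 11.80 in air, a fall of 1.55 ± 0.40 on the log2 scale (SE; adjusted p = 0.00717). Gpt2, an alanine aminotransferase, rose by 0.72 (adjusted p = 4.95e-05), while Fbp1, of gluconeogenesis, changed by 0.01 (adjusted p = 0.923). Cbs, which makes cystathionine, fell by 0.74 (adjusted p = 0.000285), and Mat1a, which makes the methyl donor of the liver, rose by 0.59 (adjusted p = 0.00116). Csad, an enzyme of taurine synthesis, stood at 8.67, 7.85, 7.92, 9.93 and 7.14 at 120 ppm, against 10.39, 10.65, 11.08, 9.37 and 9.15 in air, a fall of 1.83 ± 0.44 on the log2 scale (SE; adjusted p = 0.00391).

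In the hypoxia list 6 of 19 rose and 0 fell, and 3 glycolytic enzymes did not pass. With other choices there were 1 fall with median-centred arrays, when only the compared groups were fitted and with the replicate block. Vegfa, the vessel growth factor, stood at 7.79, 7.99, 8.10, 8.20 and 8.12 at 120 ppm, against 6.95, 7.22, 7.04, 7.09 and 7.23 in air, a rise of 0.93 ± 0.09 on the log2 scale (SE; adjusted p = 1.45e-07). Bnip3, which marks mitochondria for removal, rose by 1.23 (adjusted p = 1.79e-05), Pdk1, which slows pyruvate oxidation, by 0.89 (adjusted p = 0.000384) and Hif1a by 0.58 (adjusted p = 0.00703). The glycolytic enzymes Pgk1, Ldha and Aldoa changed by -0.08 (adjusted p = 0.53), 0.03 (adjusted p = 0.837) and -0.27 (adjusted p = 0.152).

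Of 11 measured metallothionein and zinc genes 2 rose and 2 fell. Counts that differed were 0 rises without air replicate 3 and 4 rises with array weights. Mt1, a metallothionein that binds zinc and copper, stood at 13.47, 13.34, 13.30, 13.22 and 13.31 at 120 ppm, against 11.07, 11.51, 9.05, 11.75 and 12.77 in air, a rise of 2.10 ± 0.64 on the log2 scale (SE; adjusted p = 0.0197) that was lost without air replicate 3 (0.0915). Slc30a10, a manganese exporter, fell by 0.99 (adjusted p = 7.61e-05) and Slc39a4, a zinc importer, by 0.48 (adjusted p = 0.0134). Of 27 measured immediate early genes 4 fell and 2 rose. Elsewhere the counts were 0 rises with median-centred arrays, after a second quantile normalization, when only the compared groups were fitted and without any 1 of 120 ppm replicate 4 or air replicate 1, 1 rise among the brighter probe sets and without any 1 of 120 ppm replicates 1, 2, 3 and 5 or air replicates 2, 3 and 4, 1 fall without any 1 of 120 ppm replicate 4 or air replicate 2 and 2 falls without any 1 of 120 ppm replicate 3 or air replicates 4 and 5. Egr1, an immediate early transcription factor, stood at 5.34, 4.60, 4.77, 4.53 and 5.30 at 120 ppm, against 4.66, 9.74, 6.71, 8.65 and 8.07 in air, a fall of 2.66 ± 0.85 on the log2 scale (SE; adjusted p = 0.0271) that was lost without any 1 of 120 ppm replicates 2 and 4 or air replicates 2, 4 and 5 (up to 0.0956). The mice overlapped, as they did for Fos at -1.40 (adjusted p = 0.0318), whose call was lost when only the compared groups were fitted (0.0729) and without any 1 of 120 ppm replicates 1, 3 and 4 or air replicates 2 and 4 (up to 0.129). Of 21 measured glucocorticoid targets 6 rose and 1 fell, with a median of 0.07. Settings that moved these counts gave 2 falls with median-centred arrays, with array weights, when only the compared groups were fitted, with the replicate block and without air replicate 1. Fkbp5, one of these, rose by 1.99 (adjusted p = 3.69e-05), and others of the list, such as Lcn2 and Igfbp1, are described elsewhere.

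Class II genes of antigen presentation and some interferon genes fell. Of 13 antigen presentation genes 7 fell and 0 rose. The list then held 1 rise without air replicate 5. H2-Eb1, a class II chain, stood at 6.33, 6.10, 6.31, 6.56 and 6.55 at 120 ppm, against 6.59, 7.47, 7.70, 7.94 and 8.51 in air, a fall of 1.27 ± 0.28 on the log2 scale (SE; adjusted p = 0.00227). Cd74, the class II invariant chain, fell by 1.02 (adjusted p = 0.00717) and H2-DMa, which loads peptides, by 0.96 (adjusted p = 0.00092), while the class I gene H2-K1 changed by -0.06 (adjusted p = 0.56), called over the mean of the gene's probe sets (0.0381). Of 22 interferon genes 7 fell and 0 rose. Under other processing it had 4 falls without 120 ppm replicate 2. Cxcl9, a chemokine, stood at 4.99, 4.84, 5.87, 6.20 and 5.99 at 120 ppm, against 6.39, 6.79, 6.70, 6.89 and 8.57 in air, a fall of 1.49 ± 0.37 on the log2 scale (SE; adjusted p = 0.00508), and Irf9, part of the interferon signal, fell by 0.42 (adjusted p = 0.00395).

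Kupffer cells, the macrophages of the liver, carry class II as well, and 7 of 14 of their genes fell and 1 rose. This changed to 0 rises without any 1 of air replicates 2 and 3. The defining Clec4f fell by 0.74 (adjusted p = 0.000426) and Folr2, a folate receptor of tissue macrophages, stood at 5.74, 5.72, 6.19, 6.20 and 6.70 at 120 ppm, against 6.90, 7.49, 7.00, 7.27 and 7.58 in air (adjusted p = 0.000273). Vsig4 and Mpeg1 changed by -0.06 (adjusted p = 0.889) and 0.04 (adjusted p = 0.905). Levels per gene over the list averaged 6.75 to 7.40 at 120 ppm and 7.19 to 8.14 in air, and their part in the class II change was not tested.

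Of 9 bile duct genes 0 rose and 0 fell, with Krt19 at -0.57 (adjusted p = 0.385) and Epcam at 0.23 (adjusted p = 0.224). Of 18 genes of sinusoidal endothelium 4 fell and 0 rose. The counts were 2 falls over the mean of the gene's probe sets and without any 1 of 120 ppm replicates 1 and 3 or air replicate 2. The endothelial receptor Stab2 changed by 0.21 (adjusted p = 0.139), and Wnt2, a signal of these cells to hepatocytes, fell by 0.52 (adjusted p = 0.00967). Of 11 genes of T and NK cells 0 rose and 0 fell. Only 3 of the 11 were among the brighter probe sets. Levels per gene averaged 3.33 to 3.52 at 120 ppm and 3.31 to 3.54 in air, near the lower end of the scale. Other settings gave 1 rise with a prior variance that follows the mean and without any 1 of 120 ppm replicate 3 or air replicate 5, 1 fall with array weights and without 120 ppm replicate 2 and 2 falls with median-centred arrays and after a second quantile normalization. Of 7 genes of B cells 3 rose and 0 fell, with a median of 0.00. Processed otherwise, the list held 0 rises after a second quantile normalization, 1 rise with median-centred arrays and without any 1 of 120 ppm replicates 3 and 4 or air replicates 3 and 5 and 1 fall with median-centred arrays, after a second quantile normalization and without 120 ppm replicate 5. Cd22, Ms4a1 and Cd79a, all on the B cell surface, rose by 0.43 (adjusted p = 0.00371), 0.39 (adjusted p = 0.0429) and 0.29 (adjusted p = 0.0273), and each call was lost after a second quantile normalization (0.0901, 0.0847 and 0.201). Ighm, the heavy chain of IgM, and Cd79b changed by -0.30 (adjusted p = 0.0819) and 0.00 (adjusted p = 0.986). Ighm was called with median-centred arrays (0.0259) and after a second quantile normalization (0.044). Levels per gene over the list averaged 3.59 to 3.83 at 120 ppm and 3.60 to 3.72 in air, near the lower end of the scale. Of 4 red cell genes 1 fell, Alas2, of heme synthesis, by 0.62 (adjusted p = 0.00563), while the globin Hba-a1 changed by -0.18 (adjusted p = 0.353).

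Some transcripts known from other organs were higher in air mice. Sftpc, a lung surfactant protein, was 3.50, 3.19, 3.90, 3.64 and 3.29 at 120 ppm, against 3.06, 5.27, 4.60, 7.98 and 5.68 in air, and Scgb1a1, a club cell secretoglobin of the airway, was 5.17, 4.55, 5.31, 4.71 and 4.71 at 120 ppm, against 4.81, 6.82, 5.06, 9.34 and 6.89 in air. Sftpc was above every 120 ppm mouse in 4 air mice and Scgb1a1 in 3, and both were highest in air replicate 4. Sftpc fell by 1.82 (adjusted p = 0.00553), a call that was lost when only the compared groups were fitted (0.0548). Scgb1a1 fell by 1.69 (adjusted p = 0.0359), a call that was lost with a robust prior (0.0521), when only the compared groups were fitted (0.0752) and without any 1 of 120 ppm replicates 2, 4 and 5 or air replicates 2, 4 and 5 (up to 0.169). Of 6 lung genes the other 4, among them Sftpd and Ager at -0.02 (adjusted p = 0.943) and -0.10 (adjusted p = 0.559), did not pass. Atp4a, a subunit of the proton pump known from the stomach, stood at 3.76, 4.32, 4.05, 4.14 and 4.27 at 120 ppm, against 5.92, 6.43, 5.63, 5.47 and 5.51 in air, a fall of 1.68 ± 0.26 on the log2 scale (SE; adjusted p = 5.2e-05) with a gap of 1.16. Of 9 measured genes of the exocrine pancreas 2 fell and 0 rose. With other choices there were 1 rise with array weights, over the mean of the gene's probe sets and without any 1 of 120 ppm replicate 5 or air replicate 1, 1 fall when only the compared groups were fitted, with the replicate block and without any 1 of 120 ppm replicates 2, 3, 4 and 5 or air replicates 2 and 5 and 4 falls without 120 ppm replicate 1. Cela1, a pancreatic elastase gene, fell by 1.10 (adjusted p = 5.45e-05), while the pancreatic genes Cpa1 and Prss2 changed by -0.07 (adjusted p = 0.695) and -0.08 (adjusted p = 0.703).

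Hepatocytes differ along the lobule. Of 19 measured periportal genes 3 rose and 4 fell, with a median of 0.18. Counts that differed were 5 rises with a prior variance that follows the mean and when only the compared groups were fitted, 6 rises with array weights, 7 rises over the mean of the gene's probe sets and 2 falls without any 1 of 120 ppm replicates 2 and 3 or air replicates 2 and 3. Cdh1, which encodes E-cadherin, stood at 6.83, 6.79, 7.25, 7.09 and 7.85 at 120 ppm, against 8.89, 9.18, 8.84, 8.88 and 8.52 in air, a fall of 1.70 ± 0.26 on the log2 scale (SE; adjusted p = 4.81e-05), and Pigr, the carrier of IgA into bile, rose by 0.56 (adjusted p = 0.00876). Of 23 measured pericentral genes 5 rose and 3 fell, with a median of -0.02. Elsewhere the counts were 2 rises with median-centred arrays and 3 rises after a second quantile normalization and without any 1 of 120 ppm replicates 3 and 4 or air replicates 1 and 3. Rnf43, an inhibitor of WNT signalling, rose by 0.93 (adjusted p = 0.00331). Of 32 measured genes of DNA replication and the cell cycle 9 fell and 3 rose, with a median of -0.10. Settings that moved these counts gave 0 rises with median-centred arrays, 1 rise after a second quantile normalization and among the brighter probe sets and 5 falls without any 1 of 120 ppm replicate 1 or air replicate 3. Ccnd1, cyclin D1, stood at 4.99, 5.30, 5.52, 5.66 and 5.86 at 120 ppm, against 6.53, 7.06, 6.75, 6.38 and 6.66 in air, a fall of 1.21 ± 0.32 on the log2 scale (SE; adjusted p = 0.00776), and Mcm2 and Mcm7, of the replication helicase, fell by 0.68 (adjusted p = 0.00254) and 0.62 (adjusted p = 0.00265).

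Several of the largest changes belong to no list. Ildr2, a membrane protein of the immunoglobulin family, rose by 2.04 (adjusted p = 2.82e-05), Nipal1, of a family of magnesium carriers, by 1.90 (adjusted p = 0.00144), and D630004K10Rik, of no annotated role here, by 2.15 (adjusted p = 5.01e-07), with levels of 6.36, 6.14, 6.26, 6.50 and 6.49 at 120 ppm and 3.80, 4.35, 4.07, 4.12 and 4.65 in air. Falls outside the lists were those of Serpina12, an adipokine-like serpin, by 1.76 (adjusted p = 0.00109), Grk5, a kinase of receptors, by 1.75 (adjusted p = 0.00477), and Nat8f5, an acetyltransferase, by 1.76 (adjusted p = 0.000913). Ethe1, which oxidises sulfide in mitochondria, stood at 9.59, 9.69, 9.71, 9.67 and 9.65 at 120 ppm, against 10.65, 10.61, 10.70, 10.82 and 10.48 in air, with a gap of 0.77, and Dcakd, related to an enzyme of coenzyme A synthesis, fell by 1.03 (adjusted p = 0.000124) with a gap of 0.80.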

How the data were processed

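RNA of 35 mouse livers was measured on Affymetrix 3' IVT arrays, and 10 of these (120 ppm and air) make the main comparison. The deposited values are log2 levels per probe set. RMA and Partek are named, without version or order, in the submitters' processing notes, and the base of the logarithm was taken as 2 from the range of values. No normalization was added. Precision is limited by the number of arrays. Of 45141 probe sets, 104 controls were left out, and 28898 of the rest name 1 gene (17097 genes), 551 several and 15588 none, by the platform annotation. A gene is read by its probe set of highest mean, and of 1502 called genes with more than 1 probe set, 80 had calls both ways. limma 3.58.1 in R 4.3.3 (with data.table, version 1.17.8) fitted a mean per group to all 35 arrays, with 28 residual and 5.41 prior degrees of freedom, then 120 ppm minus air, 120 minus 40 ppm, and a slope on the place of the title number within groups. Benjamini-Hochberg adjustment ran over 45037 probe sets. Array measures used exact permutation over 252 divisions. On simulated data for 120 ppm against air, over 45037 probe sets, 67, 67 and 66 were changed by 0.5, 1.0 and 2.0 log2 units. Of these 55.2%, 89.6% and 100% were recovered, with 10 false calls. The simulated noise was independent and far more probe sets, 8727, were called in the data, so these shares may not hold there. Promoters came from RefSeq for GRCm38.p6.

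The genes compared, the 80 lists and the tests were chosen with earlier results of these data known. Named genes are the 20 largest rises and falls, the 10 smallest p, those called against 40 ppm, the 6 widest gaps each way, and up to 6 passing and 4 other members of each described list. Alternatives covered scaling, filters, the variance prior, array weights, probe set choice, a replicate block and leaving out each mouse.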

Additional observations from a re-analysis of the deposited data

Results flagged for a closer look

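Among 500 groups of 5 mice, 2 for each of 250 genes, 24 held a mouse whose distance from the nearest other mouse was most of its group's range, by Dixon's test with a critical value of 0.71. Chance flags about 1 group in 20. Such mice fell in both groups and 5 of the 24 were air replicate 5, the air mouse that lay nearest to the 120 ppm mice on the first principal component.

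At 120 ppm, replicate 5 was low for Acot3, at 6.61, and high for Gys2 and H2-DMa, at 9.08 and 4.19. Replicate 4 was low for Cyb561 and Orm3, at 5.67 and 6.38, and high for Hnf4a and Wdr43, at 11.79 and 6.55. Replicate 2 was low for Ndufs8 and Sec23a, at 10.95 and 9.54, and replicate 1 was high for Cirbp, at 7.41. In air, replicate 5 was high for Serpina3n, Slc16a5, Stat3 and Cxcl9, at 11.22, 4.25, 9.92 and 8.57, and low for Elovl3, at 10.85. Air replicate 4 was high for the duct gene Krt19 and the lung gene Sftpd, at 7.04 and 3.73. Air replicate 2 was low for Hnf4a and high for Tubb6, at 11.3 and 6.59. Air replicate 1 was low for Irf9, Ndufs8 and Tuba1a, at 7.05, 11.29 and 6.95, and air replicate 3 was low for Gys2, at 8.34, and high for Ighm, at 3.87.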

How the results depend on the processing

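With each array centred on its median, 2943 probe sets were higher and 5560 lower at 120 ppm than in air, against 5846 and 2881 as deposited, and 956 and 1038 by at least 1.5-fold, against 1643 and 594. A second quantile normalization gave 3570 and 4100, with 957 and 972 by at least 1.5-fold. Among genes, centring gave 973 higher and 2518 lower and quantile normalization 1252 higher. Among the brighter probe sets, of which fewer are tested, 3747 were higher. Other settings kept these counts within 1.5 times.

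Against 40 ppm, the 11 higher probe sets were 6 with centring and 7 with the replicate block, and from 2 to 12 without 1 mouse, with 0 lower as deposited and 1 lower with centring, with quantile normalization or with array weights, 2 in a fit of only the 2 groups, and 0 to 1 without 1 mouse. By at least 1.5-fold the counts were 5 higher with centring, 2 lower in a fit of only the 2 groups, and 2 to 10 higher and 0 to 1 lower without 1 mouse. Genes numbered 2 lower in a fit of only the 2 groups, and 2 to 7 higher and 0 to 1 lower without 1 mouse. The cause was not tested.

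Same-numbered mice of the 120 ppm and air groups had correlations of their deviations from -0.0377 to 0.18. Of the 5 numbers, 2 matched best with their own, and so few values cannot decide whether the numbers pair the mice. The main fit did not pair them. With the replicate block 5863 probe sets were higher and 2883 lower than air. Low probe sets are bounded by array noise, which can understate their changes.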

Other observations

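Of 31 genes of amino acid breakdown 7 rose and 3 fell. The list then held 2 rises with median-centred arrays and without air replicate 3 and 4 rises without any 1 of 120 ppm replicate 1 or air replicate 1. Of 8 urea cycle genes 1 rose, Slc25a13, the mitochondrial aspartate carrier, by 0.59 (adjusted p = 0.000444), and 0 fell. Under other processing it had 2 rises among the brighter probe sets, with a prior variance that follows the mean, with array weights and over the mean of the gene's probe sets and 1 fall with median-centred arrays. The other enzymes, among them Cps1 and Otc, changed by 0.15 (adjusted p = 0.19) and 0.23 (adjusted p = 0.363). Of 16 tRNA synthetases 4 fell, the largest being Aars, for alanine, at 0.48 (adjusted p = 0.000889), and 0 rose. This changed to 1 rise when only the compared groups were fitted, 2 falls without any 1 of 120 ppm replicates 3 and 5 or air replicates 2 and 3 and 9 falls with median-centred arrays.

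Of 14 genes of the monocarboxylate transporter family 4 rose and 0 fell. Beside Slc16a5, Slc16a12, a carrier of creatine, stood at 8.82, 8.69, 8.80, 8.84 and 8.67 at 120 ppm, against 7.70, 7.69, 7.56, 7.20 and 7.52 in air, a rise of 1.23 ± 0.19 on the log2 scale (SE; adjusted p = 5.45e-05), and Slc16a7, a pyruvate carrier, rose by 1.18 (adjusted p = 0.0125). Slc16a1, the common lactate carrier, changed by 0.06 (adjusted p = 0.837). Of 13 thioesterases 2 rose, Acot3 and the cytosolic Acot12. The counts were 1 fall with median-centred arrays and without air replicate 5. Acot12 rose by 0.83 (adjusted p = 0.000792), while Acot13 and Acot8 changed by 0.07 (adjusted p = 0.684) and -0.09 (adjusted p = 0.649). Of 12 genes of glucuronidation 0 rose and 1 fell, with a median of 0.07. Other settings gave 0 falls when only the compared groups were fitted and without any 1 of 120 ppm replicates 1 and 2. Ugt1a6a and Ugt1a9, which share most of their sequence, changed by 0.08 (adjusted p = 0.321) and 0.11 (adjusted p = 0.218).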
